A study of Mus musculus with 15 samples.

Results

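The 10 genes followed here in whole liver chromatin are markers of hepatic stellate cells and liver fibroblasts: Dcn, Col1a1, Col1a2, Col3a1, Reln, Des, Acta2, Cygb, Lrat and Lum. They are 10 of 21887 protein-coding genes on chromosomes 1 to 19, X and Y, listed by name as markers of these cells with earlier results of these data known. Chromatin from livers of C57Bl/6 mice aged 8 to 12 weeks was digested to mononucleosomes and immunoprecipitated for H3K4me3, H3K27me3 or H3K9me3, and 12 libraries had lists of enriched regions. Wild-type mice (WT) were compared with Uhrf1hepKO mice (KO), a line named for loss of Uhrf1 in hepatocytes. The Cre driver of that deletion is not given in the sources used here. Uhrf1 encodes a protein that guides the copying of DNA methylation after replication. H3K4me3 was profiled in 2 WT and 2 KO libraries at baseline. H3K27me3 was profiled at baseline in WT replicate 1 and in 1 KO library, and in WT mice at 0, 30, 40 and 96 h of liver regeneration, where the 0 h library is WT replicate 2. H3K9me3 was profiled in 1 WT and 1 KO library. The labels do not say how regeneration was started or whether replicates came from separate animals.

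Hepatic stellate cells lie between the sinusoid and the hepatocytes. At rest they store vitamin A as retinyl esters, and after injury they can become contractile, matrix-producing myofibroblasts. Portal fibroblasts surround the bile ducts and are a further source of collagen. Both cell types are a minority in a liver dominated by hepatocytes, which do not express most of these genes. H3K4me3 is found at active and poised promoters, H3K27me3 is deposited by Polycomb repressive complex 2 over silent developmental and lineage genes, and a start that carries both is often called bivalent. In whole liver chromatin, fewer cells carrying a mark and less of the mark per cell cannot be told apart. For the same reason, both marks at one start on the same nucleosomes and each mark in other cells cannot be told apart.

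A gene start was called marked when a region from the authors' lists reached to within 1 kb of it on either side. The regions were MACS2 peaks for H3K4me3 and SICER islands with a false discovery rate (FDR) of 0.01 or below for H3K27me3. The start was the annotated RefSeq start of GRCm38 for 6 of the 10 genes. For Dcn, Col1a1, Cygb and Lum the end with the greater total length of H3K4me3 peaks over the 4 libraries was used, so their H3K4me3 calls are not independent of that choice. No test was run between groups: the lists give presence and size of called regions, H3K4me3 had 2 libraries against 2, and H3K27me3 had 1 KO library. The H3K4me3 lists held 25714 to 73431 peaks covering 21.4 to 45.5 Mb, and both replicate 2 lists were the shorter ones of their genotype. The H3K27me3 lists held 10486 to 13964 islands over 378 to 500 Mb, with 12764569 to 21738935 ChIP reads in them. As a check on the tissue, 18 or 19 of 19 hepatocyte genes had an H3K4me3 peak at the start in each library, and none had an H3K27me3 island in any of 6.

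Promoter sequence was available for 6 of the 10 genes (RefSeq, GRCm38.p6), and the 250 bases before the start differed widely in CpG dinucleotides. Of the sequences shown, Reln had the most CpG of these genes, Col3a1 had none, and Lrat and Col1a2 were marked by both H3K4me3 and H3K27me3 in both genotypes. The Reln stretch lies at chr5:22344706-22344955 on the minus strand and that of Lrat at chr3:82903975-82904224 on the minus strand. The Col1a2 stretch lies at chr6:4505368-4505617 and that of Col3a1 at chr1:45311288-45311537, both on the plus strand. Each is written 5′ to 3′ toward the start, with CpG dinucleotides in capitals.
Reln: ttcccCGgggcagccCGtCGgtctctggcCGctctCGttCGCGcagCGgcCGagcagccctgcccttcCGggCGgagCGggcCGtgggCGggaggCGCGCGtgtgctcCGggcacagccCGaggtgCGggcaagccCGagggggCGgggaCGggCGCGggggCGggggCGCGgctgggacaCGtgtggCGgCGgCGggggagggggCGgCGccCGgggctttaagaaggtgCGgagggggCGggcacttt
Lrat: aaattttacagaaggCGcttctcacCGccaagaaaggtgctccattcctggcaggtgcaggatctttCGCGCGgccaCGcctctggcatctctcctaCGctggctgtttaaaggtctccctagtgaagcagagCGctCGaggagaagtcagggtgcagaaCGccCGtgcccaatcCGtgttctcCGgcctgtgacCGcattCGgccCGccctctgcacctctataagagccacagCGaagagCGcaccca
Col1a2: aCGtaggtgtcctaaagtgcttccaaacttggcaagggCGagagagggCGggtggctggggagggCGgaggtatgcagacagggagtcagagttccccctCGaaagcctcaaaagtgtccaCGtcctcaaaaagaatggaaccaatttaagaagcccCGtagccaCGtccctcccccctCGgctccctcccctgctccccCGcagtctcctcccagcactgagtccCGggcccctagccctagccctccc
Col3a1: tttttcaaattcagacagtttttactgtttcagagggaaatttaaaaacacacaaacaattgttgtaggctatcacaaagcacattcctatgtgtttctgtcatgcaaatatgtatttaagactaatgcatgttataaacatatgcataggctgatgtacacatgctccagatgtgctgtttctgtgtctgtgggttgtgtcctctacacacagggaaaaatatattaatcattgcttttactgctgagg
Reln held 37 CpG in its 250 bases, more than 97.2% of all annotated starts, and its GC content was 80.0%. Lrat held 18 (71.0% of starts have fewer), Col1a2 held 11 (52.5%), Des held 10 (49.9%) and Acta2 held 4 (29.0%). The annotated Acta2 start lies 212 bp inside the outer bound of the gene, so its 250 bases fall mostly within the annotated gene. The median over 21263 annotated starts was 10. Starts with both marks in WT and starts with H3K4me3 alone each had a median of 16 CpG, starts with H3K27me3 alone had 5 and starts with neither had 2. The letters TATAA, searched on both strands, occurred 2 times before Col3a1, 1 time before Lrat and not before the other 4, and 20.3% of all annotated starts hold them in this window. The Col3a1 matches overlap, 1 on each strand, in the same stretch ttataa.

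**Figure D1:**
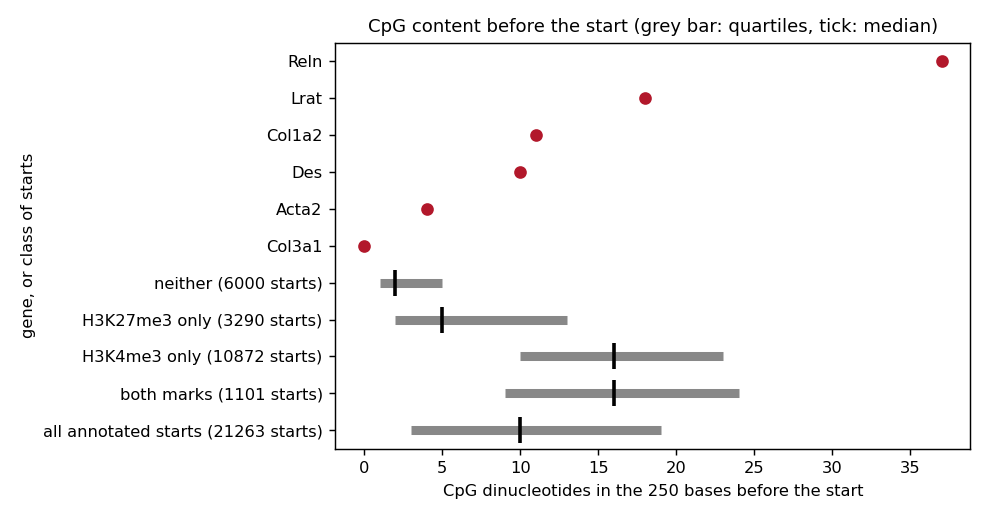
CpG dinucleotides in the 250 bases before the start (x axis) for the 6 genes with a promoter sequence (red points) and, as grey bars with a median tick, the quartiles of all annotated starts and of classes of starts by their marks in WT. Reln, with 37, lies to the right of every bar, and Col3a1, with 0, lies left of all of them.

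H3K4me3 was called at 5 to 8 of the 10 starts in each library, mostly as small and weak peaks. In WT replicate 1, 8 of the 10 starts were marked, against 63.3% of all protein-coding genes. WT replicate 2 marked 7 (56.8% of all genes), KO replicate 1 marked 5 (62.4%) and KO replicate 2 marked 8 (59.5%). The counts in 3 libraries lay above the share of all genes and the count in KO replicate 1 lay below it. The start was chosen by H3K4me3 peak length for 4 of the 10 genes but for 2815 of 21887 genes. The member counts and the shares of all genes are thus not like for like. Both WT libraries marked 6 of the 10 (56.4% of all genes) and both KO libraries 5 (58.3%). Dcn, Col1a2, Reln and Lrat were marked in all 4 libraries (56.1% of all genes were), and every one of the 10 was marked in at least 1, where 35.2% of all genes were marked in none. For Dcn, Col1a1, Cygb and Lum a call in at least 1 library follows from choosing the start by peak length. Among marked starts, the 10 genes had a median of 313, 539, 404 and 557 bp of the 2001 bp window in peaks, in WT replicates 1 and 2 and KO replicates 1 and 2. The medians over all marked genes in the same order were 1418, 1202, 1400 and 1287 bp. Those of the marked hepatocyte genes were 1697, 1186, 1713 and 1266 bp. The authors' fold over background of the highest peak had a median of 4.52, 8.32, 6.31 and 7.19 in the 10 genes, against 19.5, 46.0, 17.6 and 63.1 in all marked genes. At the median, peaks thus covered less of the window and had a lower fold at the 10 genes than at all marked genes in each library.

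**Figure D2:**
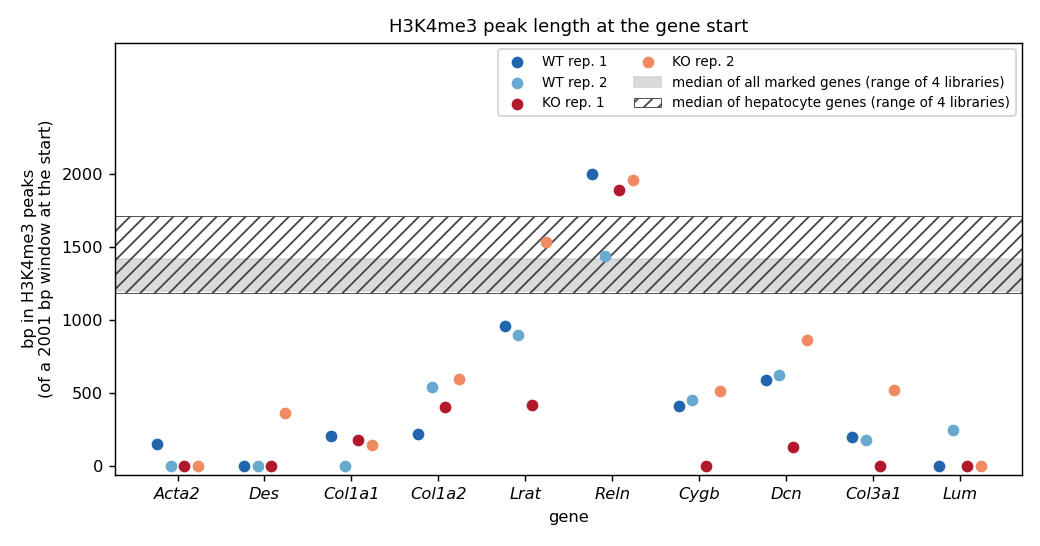
Length of H3K4me3 peaks in the 2001 bp window at each start (y axis, bp) for the 10 genes in the 4 libraries, with the range over libraries of the median of all marked genes (grey band) and of hepatocyte genes (hatched band). Reln reaches or exceeds the bands in every library, with 1436 to 2001 bp, and Lrat does so in KO replicate 2 alone. The other 8 genes lie below both bands.

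Of the stellate cell genes, Reln and Lrat had the most peak length in the window. Reln encodes the secreted glycoprotein reelin, which resting stellate cells make. Peaks covered 2001 and 1436 bp of its window in WT replicates 1 and 2 and 1893 and 1958 bp in KO replicates 1 and 2, at folds of 11.4, 8.32, 10.3 and 16.3. Its peaks reached 829 to 1251 bp upstream of the start. Lrat encodes lecithin retinol acyltransferase, which makes the retinyl esters of stellate cell droplets. Its peaks covered 959 and 900 bp in WT and 417 and 1534 bp in KO, at folds of 6.71, 8.32, 5.79 and 9.79. In each of the 4 libraries Reln had the most peak length in the window of the 10 genes and Lrat the next most, and the ranges of the WT and KO values overlapped at both genes. Cygb encodes cytoglobin, an oxygen-binding globin of stellate cells and fibroblasts. It had 408 and 449 bp in WT and 511 bp in KO replicate 2, while in KO replicate 1 the nearest peak lay 2132 bp outside the window. Des encodes desmin, a muscle-type intermediate filament. Its start was marked in KO replicate 2 alone, by 366 bp at a fold of 4.13, and the nearest peaks of the other libraries were over 20 kb away.

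The collagen and proteoglycan genes had peaks that lay mostly inside the gene and covered 863 bp of the window or less. Col1a1, which encodes the alpha 1 chain of type I collagen, had a peak 728 to 932 bp into the gene in WT replicate 1, at a fold of 11.4. Peaks lay at the same place in KO replicate 1 (743 to 920 bp, fold 8.16) and KO replicate 2 (753 to 898 bp, fold 5.44), and WT replicate 2 had none. Col1a2, which encodes the partner chain, was marked in all 4 libraries, by 218 and 539 bp in WT and 404 and 595 bp in KO. Col3a1 encodes type III collagen, which is abundant in reticular fibres. Its peaks covered 198 and 180 bp in WT and 519 bp in KO replicate 2, and in KO replicate 1 the nearest lay 1372 bp outside the window. Dcn encodes decorin, a small leucine-rich proteoglycan that binds collagen fibrils. It had 588 and 623 bp in WT and 127 and 863 bp in KO, at folds of 4.38, 8.32, 3.16 and 8.70. In KO replicate 2 this was part of a single peak of 3409 bp, from 138 to 3546 bp into the gene, which was longer than any peak at the start of the other 9 genes in that library. The longest Dcn peak at the start was 336 and 802 bp in WT and 226 bp in KO replicate 1. Lum encodes lumican, a related proteoglycan 47.3 kb from Dcn on chromosome 10. It was marked in WT replicate 2 alone, by 249 bp at a fold of 4.41, with no other peak within 81 kb of the window in the other 3 libraries. Acta2, the smooth muscle actin gene of myofibroblasts, was marked in WT replicate 1 alone, by 150 bp at a fold of 3.79.

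By the rule that both libraries of a genotype must differ from both of the other, no member lost or gained H3K4me3 in KO. Over all genes 0.0183% were lost and 0.11% gained. The result turns on single libraries. Replicate 2 of both genotypes is labelled as round 2, and the labels give replicate 1 no round. With replicate 1 alone, 3 starts were marked in WT and not in KO (Col3a1, Acta2 and Cygb). With replicate 2 alone 1 was (Lum), and 2 were marked in KO and not in WT (Col1a1 and Des). Narrowing the window to 0.1 kb either side left calls only at Col1a2, Reln and Lrat among the 10. At a q-value of 1e-05 or below, Des, Acta2 and Lum had no peak in any library. These settings and the single-replicate counts were run on the 10 genes alone, so no share of all genes stands beside them. Of 16 macrophage and myeloid genes, 4 and 8 were marked in WT replicates 1 and 2 and 3 and 13 in KO replicates 1 and 2. Endothelial genes stood at 15 of 16 in all 4 libraries, and 2, 2, 3 and 5 of 16 lymphocyte genes were marked in the same order. The part of the macrophage and lymphocyte difference in the KO replicate 2 calls was not tested.

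H3K27me3 was found at a larger share of the 10 starts than of all genes in each of the 6 libraries. At baseline, 6 of 10 were marked in WT replicate 1 (21.7% of all genes), 7 in the WT 0 h library (26.9%) and 8 in KO (22.4%). Des and Acta2 were marked in all 6 libraries (10.3% of all genes), and Lum in none (67.9%). Among marked starts the median island fold of the 10 genes was 1.96 in WT replicate 1 and 2.13 at 0 h, and the medians of all marked genes were 1.80 and 1.76. Islands of fold 2 or more stood at 2 members in WT replicate 1 (6.04% of all genes), 4 at 0 h (5.99%) and 4 in KO (5.47%). Each fold is the authors' ratio of ChIP to control reads, scaled to library size. The intervals given with it are exact 95% binomial ones on the reads of that island and cover counting error only.

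**Figure D3:**
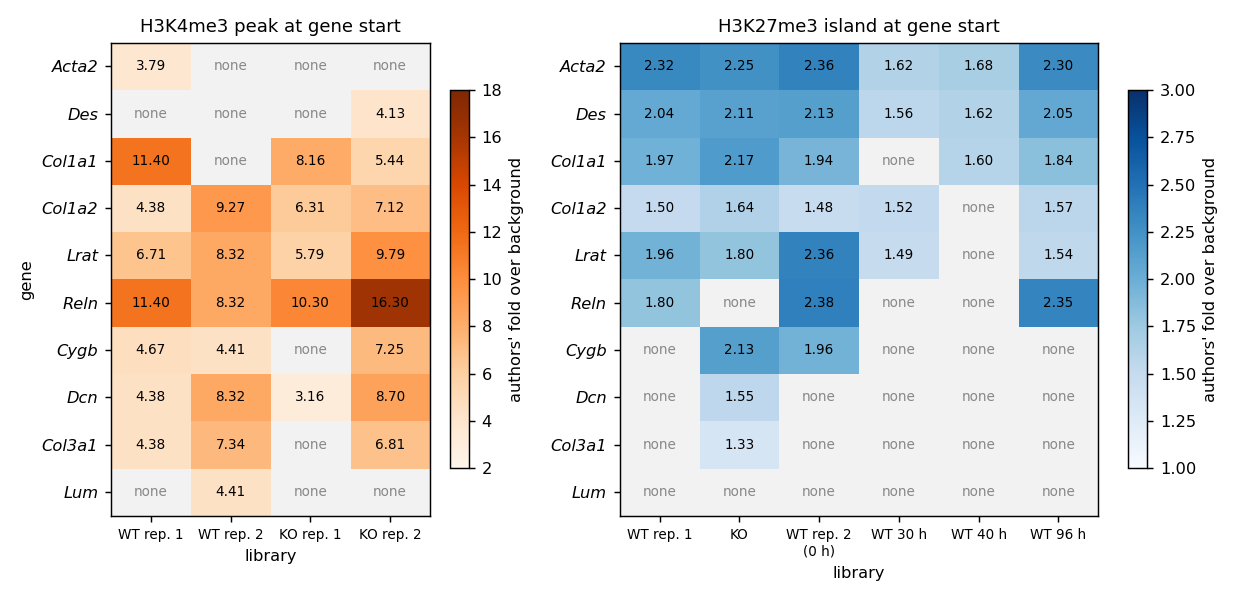
Authors' fold over background of the strongest region at each start, for H3K4me3 peaks (left, 4 libraries) and H3K27me3 islands (right, 6 libraries), with "none" where no region reached the window. Acta2 and Des have islands in all 6 H3K27me3 libraries, Lum in none, and Reln has an island in 3 WT libraries and none in KO or at 30 and 40 h.

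The contractile genes and Col1a1 lay inside long islands that covered the whole gene. The Acta2 island was 99 kb in WT replicate 1, 100 kb at 0 h and 99 kb in KO, with folds of 2.32 (interval 2.22 to 2.42), 2.36 (2.27 to 2.45) and 2.25 (2.16 to 2.35). At most 6.63 kb of it lay before the Acta2 start, and it ran on through Stambpl1 and Ankrd22 on the gene side. These folds were above those of 91.0% to 93.5% of marked genes in their lists. The Des island was 66, 110 and 55 kb long in the same 3 libraries and also covered Speg, at folds of 2.04, 2.13 and 2.11. The Col1a1 island was 146, 252 and 108 kb long, at folds of 1.97, 1.94 and 2.17, and took in Sgca and Hils1 beside the gene. Since a single island spans several genes, the call at these 3 starts is not particular to the start. Col1a2 had lower folds of 1.5, 1.48 and 1.64, on islands of 51, 19 and 94 kb. Islands held 28.9% and 6.63% of the gene in the WT libraries and 100% of it in KO.

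The islands of Reln and Lrat were short at baseline and spanned the start. At Reln the island ran from 5.29 kb before to 4.70 kb past the start in WT replicate 1, a length of 10 kb, and was 7 kb long at 0 h. Its fold was 1.80 (1.56 to 2.08) on 388 ChIP and 375 control reads, and 2.38 (2.03 to 2.78) at 0 h on 339 ChIP and 319 control reads. It held 1.02% of the 460 kb gene in WT replicate 1. At Lrat the island was 10, 8 and 9 kb long in WT replicate 1, at 0 h and in KO. It lay mostly upstream, from 7.03, 5.03 and 6.03 kb before the start to 2.97 kb into the gene. Its folds were 1.96 (1.71 to 2.25), 2.36 (2.06 to 2.71) and 1.80 (1.55 to 2.08). In their lists, 3.60% and 2.43% of islands were shorter than the Reln island in WT replicate 1 and at 0 h. Cygb had an island of 43 kb at 0 h (fold 1.96, with Prcd and Rhbdf2) and of 17 kb in KO (fold 2.13, with Prcd). In WT replicate 1 the nearest island to Cygb was 117 kb from the window, and 2.12% of all genes shared this pattern of a call at 0 h and in KO but not in WT replicate 1.

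**Figure D4:**
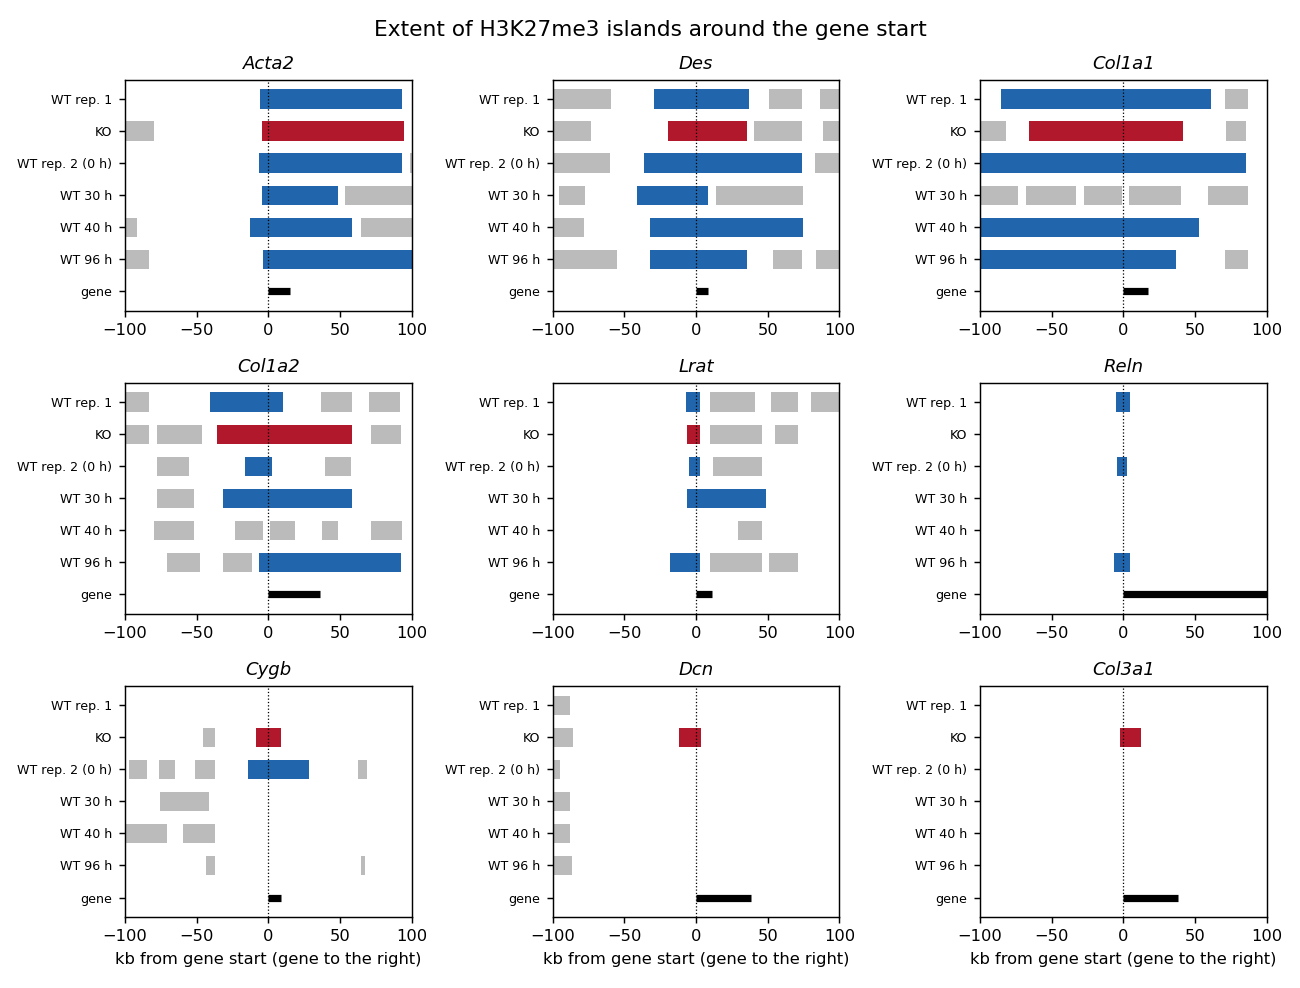
Extent of H3K27me3 islands within 100 kb of the start (x axis, kb, gene to the right) for the 9 genes with an island in any library, one row per library. Coloured bars reach the start window (blue WT, red KO), grey bars do not, and the black bar is the gene. Acta2, Des and Col1a1 sit in long islands, and the islands of Reln are 7 to 11 kb long.

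Between genotypes, Reln was the member with an island in both WT libraries and none in KO, and Dcn and Col3a1 were those with an island in KO and in neither WT library. These are 1 and 2 of 10 members, against 1.32% and 0.909% of all genes. A loss can be called only where WT was marked, as 6 members and 4755 genes were in WT replicate 1. The 1 member and 290 genes lost are among these. A gain can be called only at starts without a WT island, and 3 members and 16001 genes had none at 0 h. The 2 members and 199 genes gained are among these. With 1 KO library the difference has no replicate check. In KO the nearest island to the Reln window was 394 kb away. The KO list held no island above the FDR limit, so weaker islands could not be looked for there. The Dcn island in KO was 15 kb long, ran from 11.5 kb before to 3.50 kb past the start, and had a fold of 1.55 (1.38 to 1.74) on 598 ChIP and 600 control reads. The nearest islands to Dcn in WT were 86.5 and 93.5 kb away. The Col3a1 island in KO was also 15 kb long and had a fold of 1.33 (1.18 to 1.5) on 529 ChIP and 619 control reads. That fold was above those of only 3.30% of marked genes in KO, and Col3a1 was no longer marked at an FDR of 1e-10 or below, or when the strongest islands were kept to an equal covered length in each list. With WT replicate 1 as the only WT library, Cygb also counted as gained, for 3 in all. The KO list covered 500 Mb and the WT lists 417 and 483 Mb. WT replicate 1 and KO used the same control library, since islands with identical bounds had equal control counts in 414 of 414 cases.

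Both marks together stood at 3 of 10 starts in WT (Col1a2, Reln and Lrat), where H3K4me3 had to be in both WT libraries and the island in WT replicate 1. Over all genes 5.84% met this rule. With the 0 h islands Cygb was added, for 4 of 10 against 7.84%. In KO 4 of 10 met it (Dcn, Col1a1, Col1a2 and Lrat) against 6.98%. Col1a2 and Lrat thus carried both marks in both genotypes. Reln met the rule in WT and not in KO, where it had H3K4me3 in both libraries and no island. The KO count depended on KO replicate 1: with replicate 2 alone 7 starts had both marks in KO. With replicate 1 alone the WT count was 5, with Col1a1 and Acta2 added. The share of all genes was not computed for single replicates.

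Over regeneration the 10 genes were marked less often at 30 and 40 h than at 0 or 96 h, as were all genes. The count was 7 at 0 h, 4 at 30 h (17% of all genes), 3 at 40 h (16.5%) and 6 at 96 h (24.1%). Of the 7 genes marked at 0 h, 3 were unmarked at 30 h, where 42.5% of all genes marked at 0 h were. At 40 h 4 were unmarked (45.0%) and at 96 h 1 was (20.2%), so these shares lie near those of all marked genes. The order at 30 h depended on the call at the start: an island over at least 50% of the gene was found at 4 members at 0 h, 5 at 30 h, 3 at 40 h and 4 at 96 h. The share of all genes by that rule was not computed. None of the 3 genes unmarked at 0 h was marked later, where 5.61% of all such genes were. Each time is 1 library. The islands at 0, 30, 40 and 96 h held 21738935, 15168562, 12764569 and 21374188 ChIP reads. They covered 483, 417, 378 and 459 Mb. The part of library depth in the counts was not tested. The 30, 40 and 96 h lists shared a control library, and the 0 h list had another. The titles of the 30, 40 and 96 h libraries name round 3, and those of the WT replicate 1 and KO H3K27me3 libraries name no round.

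The change was of different kinds at different genes. Reln had no island at 30 or 40 h, with the nearest 390 and 474 kb from the window, and at 96 h had 1 of 11 kb with a fold of 2.35 (2.11 to 2.62). It was the 1 of 6 members marked at 0 and 96 h that lacked an island at both 30 and 40 h, and 21.9% of all such genes did. Lrat kept an island at 30 h, there 55 kb long and joined with Rbm46 at a fold of 1.49. It had none at 40 h (nearest 28 kb away) and 1 of 21 kb at 96 h with a fold of 1.54. Cygb had no island at 30, 40 or 96 h, with the nearest 36.5 to 40.5 kb away. Col1a1 lost its call at 30 h through an island-free stretch of 5 kb, chr11:94935001-94940000, which holds the start. Islands with folds of 1.51 and 1.62 lay on either side, and 77.5% of the gene remained in islands. Col1a2 lost its call at 40 h through a stretch of the same length, chr6:4502001-4507000, with folds of 1.39 and 1.46 on either side. The authors' calls joined windows across gaps of up to 4000 bp, and with windows of 2.5 kb either side both genes were marked, for counts of 5 at 30 h and 4 at 40 h.

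Des and Acta2 were marked at every time (11% of all genes were marked at all 4 times). The authors' folds, given here side by side, describe an island within its own list, and the 0 h list rests on another control. The Acta2 fold was 2.36 (2.27 to 2.45) at 0 h, 1.62 (1.53 to 1.72) at 30 h, 1.68 (1.60 to 1.77) at 40 h and 2.30 (2.22 to 2.37) at 96 h. Its island was 100, 53, 71 and 119 kb long at these times. The Des fold was 2.13, 1.56, 1.62 and 2.05, on islands of 110, 50, 107 and 68 kb. The lower values at 30 and 40 h were not limited to these genes, and the median fold of all marked genes was 1.76, 1.51, 1.51 and 1.76 at the 4 times. Islands of fold 2 or more stood at 4 members at 0 h, 0 at 30 h, 0 at 40 h and 3 at 96 h, against 5.99%, 0.105%, 0.219% and 6.41% of all genes. Within each list, the Acta2 fold was above those of 93.5%, 77.0%, 83.3% and 88.3% of marked genes. The ratio of ChIP to control depth that the authors' folds imply was 0.447 at 0 h and 0.369, 0.342 and 0.438 at 30, 40 and 96 h, and its part in the counts was not tested.

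No member had an H3K9me3 broad peak at the start in WT or KO, and 1.89% and 1.91% of all genes did. The share of the gene in broad peaks was highest at Lrat (3.26% in WT, 1.45% in KO) and Reln (2.33% and 2.18%). It was 0.623% and 1.26% at Dcn and 0 at the other 7 genes.

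In the wider gene lists of these cells, the share with H3K27me3 ranged from below to above that of all genes, which was 21.7% in WT replicate 1, 26.9% at 0 h, 22.4% in KO, 17% at 30 h, 16.5% at 40 h and 24.1% at 96 h. Of 20 genes of quiescent stellate cells, 4 of which are among the 10, 14 were marked in WT replicate 1, 15 at 0 h, 14 in KO, 10 at 30 h, 11 at 40 h and 14 at 96 h. The highest folds in WT replicate 1 were 2.40 at Hand2 and 2.23 at Lhx2, which encode transcription factors of stellate cells, and 2.22 at Gfap, an intermediate filament gene. H3K4me3 was called at 15, 17, 14 and 18 of the 20 in WT replicates 1 and 2 and KO replicates 1 and 2. The shares of all genes in these libraries were 63.3%, 56.8%, 62.4% and 59.5%. Of 17 portal fibroblast genes, 6, 12, 8, 6, 6 and 10 carried H3K27me3 in the same order of libraries, with the highest fold at Mfap4 (2.58), which encodes a microfibril protein. Mfap4 and some other listed genes had no annotated start and equal H3K4me3 peak length at each end, so an island at either end counted. Of 11 fibrillar collagen genes, 6, 9, 7, 4, 4 and 6 were marked. The cartilage collagen genes Col2a1 and Col11a1 had folds of 2.5 and 2.27 in WT replicate 1, where either end of Col2a1 counted. Of 15 other matrix collagen genes, 6, 11, 6, 3, 3 and 7 were marked, and Col18a1 was called in both WT libraries and not in KO. Of 17 matrix remodelling genes, 8, 10, 9, 10, 5 and 12 were marked, and of 7 globin genes, which include Cygb, 2, 4, 3, 3, 2 and 2. Of 15 contractile and intermediate filament genes, 9, 10, 8, 6, 5 and 10 were marked, and Synpo2, an actin-binding protein gene, was called in both WT libraries and not in KO.

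Of 14 small leucine-rich proteoglycan genes, 0, 1, 3, 1, 0 and 2 were marked in these 6 libraries, a share of 0% to 21.4% that was below that of all genes in each. The 3 in KO were Dcn, Fmod and Epyc, of which Dcn and Epyc had no island at the start in either baseline WT library. Within the Epyc gene, WT islands lay at chr10:97655001-97680000 in replicate 1 (fold 1.36) and at chr10:97661001-97677000 at 0 h (fold 1.57). The Epyc start was marked at 96 h in WT (fold 1.47). Epyc lies on chromosome 10 in the same row of genes as Dcn, Lum and Kera, and its island in KO had a fold of 1.36. Of 18 genes for collagen processing and crosslinking, 8, 11, 8, 6, 5 and 10 were marked, and the lysyl oxidase gene Loxl4 was called in both WT libraries and not in KO. Of 17 genes of transforming growth factor beta and platelet-derived growth factor signalling, 4, 7, 5, 4, 2 and 6 were marked. Their shares were near that of all genes in WT replicate 1 (23.5%) and below it at 40 h (11.8%). They were above it at 0 h (41.2%), in KO (29.4%), at 30 h (23.5%) and at 96 h (35.3%). The marked genes include the matricellular gene Ccn2 (fold 2.22 in WT replicate 1) and the receptor gene Pdgfrb (1.88). Of 15 genes of retinoid storage and signalling, 7, 7, 7, 5, 6 and 7 were marked. Of 7 reelin pathway genes 5, 5, 4, 3, 3 and 5 were, and the reelin receptor genes Vldlr and Lrp8 were marked in all 6 libraries.

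Markers of other liver cells carried H3K27me3 to different extents. In WT replicate 1, at 0 h and in KO it was called at 9, 11 and 10 of 16 macrophage and myeloid genes, 8, 10 and 8 of 15 bile duct genes, 5, 10 and 8 of 16 lymphocyte genes and 4, 7 and 7 of 16 endothelial genes. The endothelial share was 25% in WT replicate 1, near the 21.7% of all genes, and 43.8% at 0 h and in KO. By the rule used for the 10 genes, Clec4g and Tek of the endothelial list and Gzma and Ptprc of the lymphocyte list were gained in KO, and the endothelial gene Flt1 and the bile duct gene Prom1 were lost. Of the gained genes, Clec4g and Gzma were also marked in WT at 96 h (folds 1.45 and 1.38). Il2rg, on the lymphocyte list, was the 1 listed gene that gained H3K4me3. H3K27me3 was called at 0 of 19 hepatocyte and 0 of 20 housekeeping genes in each of these libraries. The shares for the 10 genes, 60.0%, 70.0% and 80.0%, were not set against these lists by a test.

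**Figure D5:**
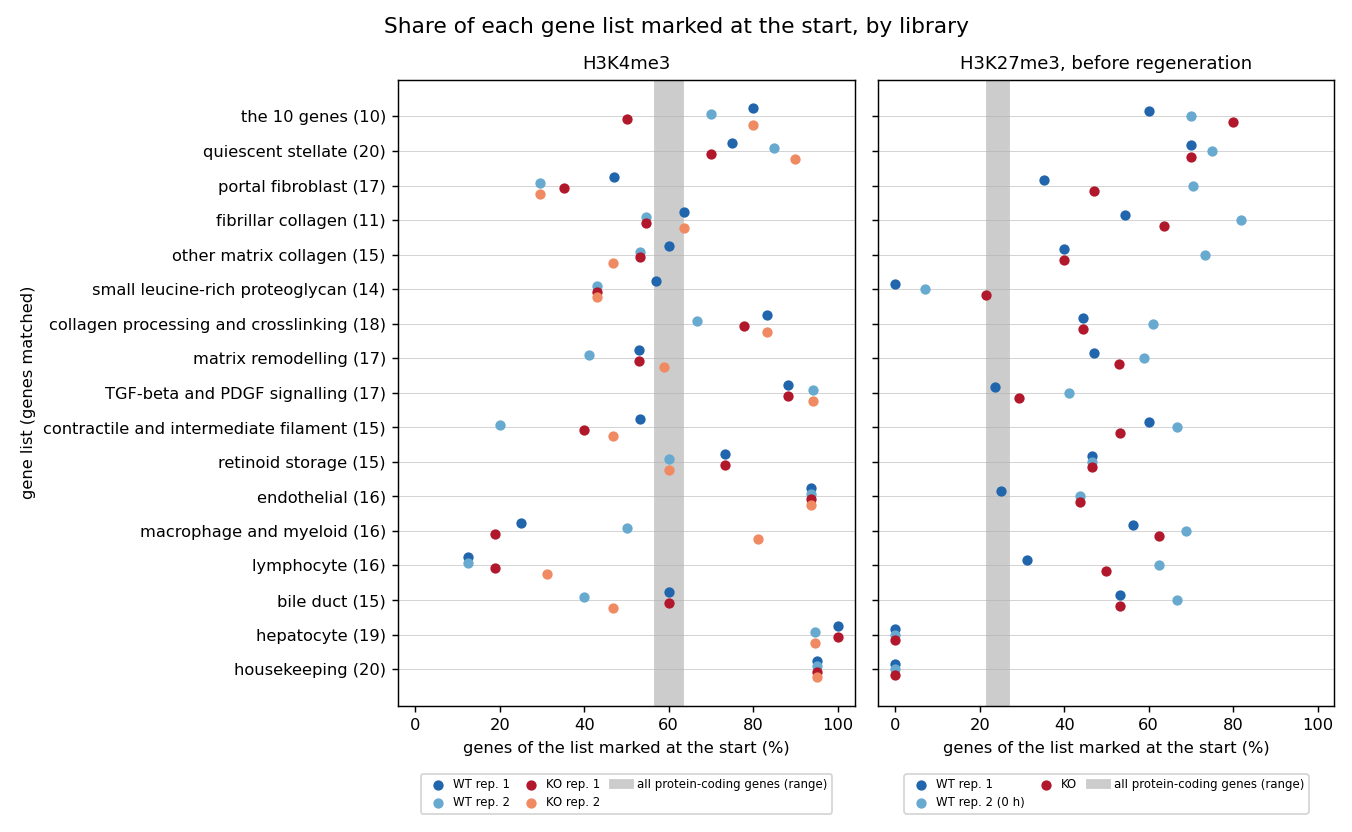
Share of each list marked at the start (x axis, percent) for H3K4me3 in 4 libraries (left) and for H3K27me3 in the 3 libraries from before regeneration (right), with the number of genes matched in brackets and the range over libraries of all protein-coding genes as a grey band. The 10 genes and the quiescent stellate list lie right of the H3K27me3 band in all 3 libraries, while hepatocyte and housekeeping genes lie at 0. Most other lists, the macrophage, lymphocyte and bile duct lists among them, also lie right of it in all 3. The proteoglycan, growth factor signalling and endothelial lists do not.

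Few listed genes shared the exact calls of a member in all 10 H3K4me3 and H3K27me3 libraries, the measure of likeness used here. Col1a2 shared its calls with 151 other genes, among them Lrat and, of the listed genes, Ccn2 and Tgfbr3. Reln shared its calls with 61 other genes of 21886, of which Loxl4 and the endothelial receptor gene Flt1 were listed. Des shared its calls with 18, with Lyz2, C1qb, C1qc and Mmp2 among the listed genes, and Acta2 with 82, with Col11a1 listed. Dcn shared its calls with 25, with Ptprc and Tek listed. Col1a1 had 30 such genes and Col3a1 had 1, none of them listed, and Cygb and Lum had 0.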

How the data were processed

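ChIP-seq of 3 histone marks in mouse liver gave 12 libraries with region lists, and 3 input samples entered only through the authors' calls. The tools the authors named were SICER, MACS2, Picard, BWA, FastQC 0.11.5 and Trimmomatic, with builds GRCm38.p4 and mm10, per the submitters' processing notes. The SICER window was 1000 bp and the gap 4000 bp, per the deposited names, and other settings are not stated there. Per the deposited files, the authors' MACS2 columns hold a score, a fold enrichment (ratio over background) and, per peak, −log10 values for p and q. The authors' SICER columns hold, per island, read counts of ChIP and control without normalization, the p-value, the fold (ratio scaled to library size) and the FDR as a q-value. Regions were called by the authors on each library separately, so replicates could be compared only by presence or absence of a region.

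Here, islands with an FDR of 0.01 or below were kept, and starts of 21887 RefSeq genes (GRCm38.p6, the build of the files) were called marked by an overlap of at least 1 bp. The start was annotated for 17492 genes, was the end with more H3K4me3 peak length for 2815, and both ends were used for 1580. Groups came from the labels. The 2 replicate 2 H3K4me3 libraries carry an antibody tag naming H3K9me3 and were grouped by title. Of their peak length, 95.8% (WT) and 92.1% (KO) lay in replicate 1 H3K4me3 peaks of the same genotype, and 0.476% and 0.447% in H3K9me3 peaks. The 10 genes and the 18 gene lists were chosen with earlier results of these data known. The text names all 10 genes, up to 3 genes sharing an island with each, listed genes lost or gained in KO, the listed genes with the highest fold in WT replicate 1, and listed genes with the same calls as a member. Pdgfrb, Fmod, Kera, Vldlr and Lrp8 were named after their values were seen. Software was scipy 1.17.1, pandas 2.3.3, matplotlib 3.10.9 and numpy 2.4.6 under Python 3.11.15. The overlap code was tested on simulated data over 1000 genes and recovered 500 of 500 overlap lengths and 200 of 200 marked starts.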

Additional observations from a re-analysis of the deposited data

How the results depend on the processing

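Of 147 recomputed counts of members, 117 stayed within 1.5 times the value reported and 30 did not. With a window of 0.1 kb either side, H3K4me3 stood at 3 and 2 members in WT replicates 1 and 2 and 3 and 3 in KO, and both marks at 2 in KO. With at least 50% of the window in regions, H3K4me3 stood at 1, 1, 1 and 2 members in the same order, and both marks at 1 in WT and 0 in KO. With islands of fold 2 or more, H3K27me3 stood at 2 members in WT replicate 1, 4 at 0 h, 4 in KO, 0 at 30 h, 0 at 40 h and 3 at 96 h. Members with H3K27me3 lost in KO were then 0, since the Reln fold in WT replicate 1 was 1.80, and both marks stood at 0 in WT and 1 in KO. The count gained in KO stayed at 2, but the members were then Col1a1 and Cygb in place of Dcn and Col3a1. At an FDR of 1e-10 or below, and with the strongest islands at equal covered length, 1 member was gained in KO (Dcn). Requiring an island over at least 50% of the gene gave 3 members in WT replicate 1, 4 at 0 h, 5 in KO, 5 at 30 h, 3 at 40 h and 4 at 96 h, so that 30 h then lay above 0 h. Leaving out H3K4me3 replicate 1 or 2 gave 1 to 3 members lost and 0 to 2 gained in KO, 3 to 5 with both marks in WT and 4 to 7 in KO. Windows of 2.5 kb, either gene end, all deposited islands, an H3K4me3 q-value of 1e-05 or below, leaving out either WT H3K27me3 library, and choosing every start by peak length (added after seeing the data) kept each of these counts within 1.5 times. The cause of these changes was not tested beyond what each setting removes by construction. No paired analysis was possible because the counts of calls came from no test, and the H3K4me3 counts with 1 replicate left out compare libraries of the same replicate number. The lists give no value below the callers' thresholds, so at this depth an uncalled start is not shown to lack the mark.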
